A study of Mus musculus with 16 samples.

Results

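The genes described here encode the proteins of the cytosolic ribosome, the machine that translates messenger RNA. They were chosen by name, as genes called Rpl or Rps followed by a digit together with Rplp0, Rplp1, Rplp2 and Rpsa. The 10 genes with Rps6k names, which encode kinases, and the 6 with -ps in the name, which mark processed pseudogenes, were left out. This gave 89 of the 24974 genes in both count tables. Among them 31 encode proteins of the small subunit, 46 encode proteins of the large subunit, 11 are paralogs or retrogenes of these, and Rps19bp1 encodes a protein that binds Rps19 and is not itself part of the ribosome.

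A ribosome joins a small subunit, which reads the message, to a large subunit, which forms the peptide bonds, and most core proteins occur once per ribosome, while the stalk proteins Rplp1 and Rplp2 occur in more than a single copy. Messages of most ribosomal proteins begin with a stretch of pyrimidines that places their translation under the control of mTORC1, and Myc is a known activator of their transcription. Thymocytes pass through a phase of fast growth and division at beta-selection and then become small resting cells at the CD4 CD8 double-positive (DP) stage. Loss of Rpl22 is known to impair the development of alpha-beta T cells, so single ribosomal proteins can matter to this lineage.

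The series compared thymocytes of mice with and without Tox4, a DNA-binding protein with an HMG box, by polyA-selected, strand-specific RNA sequencing. Controls were C57BL/6 mice with a floxed Tox4 allele on both chromosomes (Tox4 F/F) and no Cre. Conditional knockouts (cKO) carried the same floxed alleles with Lck-Cre, written Tox4;F/F;Lck+ for DP cells and Tox4;F/F;Lck-cre for CD8 cells. DP cells came in 3 samples of each genotype and CD8 cells in 5 of each, 16 libraries in all. The Cre is driven by the proximal Lck promoter and removes exons 4 to 6 of Tox4 from the DN3 stage on, before the DP stage. Per the study's methods the mice were littermates matched by sex and aged 6 to 8 weeks, DP cells for RNA were isolated with a flow cytometer, and CD8 thymocytes were sorted as TCRβ+CD8+ cells.

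Each library held between 8514135 and 25981683 counts on genes. A share of these counts has a 95% Wilson interval between 0.0153 and 0.0207 percentage points wide for the summed ribosomal protein genes, and 3 counts, the limit that a count of 0 allows, correspond to 0.115 to 0.352 CPM, the count of a gene scaled to a fixed library total. Both cover counting error only, since the libraries carry no molecular identifiers. CPM values were scaled by the TMM method over all 16 libraries. Levels of different genes are compared only as TPM, a measure like CPM which also divides by the exonic length.

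Tox4 itself was measured at 149, 165 and 173 CPM in the DP controls and at 128, 132 and 129 CPM in the DP cKO samples. Every DP cKO sample lay below every DP control, and the log2 difference was -0.32 (standard error 0.11, adjusted p = 0.381 by edgeR quasi-likelihood with Benjamini-Hochberg adjustment). In CD8 cells Tox4 was at 195, 193, 205, 208 and 184 CPM in the controls and at 172, 190, 179, 239 and 168 CPM in the cKO samples. The CD8 groups overlap, with cKO replicate 4 above all controls, and the log2 difference was -0.06 (standard error 0.10, adjusted p = 0.979 by the same test). The removed exons hold 735 of the 5350 bases of the Tox4-201 transcript, or 13.7%, so counts over the whole gene check the genotype labels only in part.

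The cell type labels were checked against marker genes. The summed level of 11 DP markers, led by the recombinase gene Rag1, was 14737 to 19282 CPM in the DP libraries and 2584 to 3236 CPM in the CD8 libraries. The summed level of 12 CD8 single-positive markers, Cd8a among them, was 7042 to 9708 CPM in the CD8 libraries and 3946 to 5423 CPM in the DP libraries. Both summed levels separate the cell types as labelled. Cd8a and Cd8b1, which are on both lists, were themselves lower in CD8 controls. Cd8a was at 1931 to 2344 CPM in DP controls and at 1492 to 1646 CPM in CD8 controls. Of the 12 markers, 9 were called higher and 2 lower in CD8 controls. In both CD8 libraries numbered 1 and both numbered 2, Rag1 was at 78.6 to 123 CPM, while the other 6 CD8 libraries had 12.2 to 35.0 CPM.

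Among the CD8 libraries 2 stood apart in the measures used here. In CD8 control replicate 1, 17741 genes had at least 1 count, where the remaining CD8 controls had 13708 to 14194 such genes. CD8 cKO replicate 5 had the lowest share of ribosomal protein counts of all 16 libraries.

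The ribosomal protein genes took 3.21, 3.65 and 3.46% of all counts in the DP controls and 3.41, 3.92 and 4.23% in the DP cKO samples. In CD8 cells they took 2.24, 1.93, 2.31, 2.86 and 2.66% in the controls and 2.45, 2.02, 2.10, 2.54 and 1.31% in the cKO samples. The means were 3.44 ± 0.223% (SD, n = 3) in DP controls, 3.85 ± 0.414% (SD, n = 3) in DP cKO, 2.40 ± 0.365% (SD, n = 5) in CD8 controls and 2.08 ± 0.488% (SD, n = 5) in CD8 cKO. All 6 DP libraries lay above all 10 CD8 libraries, and within each cell type the control and cKO samples overlapped. The log2 ratio of the mean shares in CD8 cells, cKO over control, was -0.07 without CD8 cKO replicate 5. Since most of these messages are short, their share is larger per length: they held 12.0 ± 0.475% of all TPM in DP controls (SD, n = 3) and 8.74 ± 1.15% in CD8 controls (SD, n = 5).

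**Figure D1:**
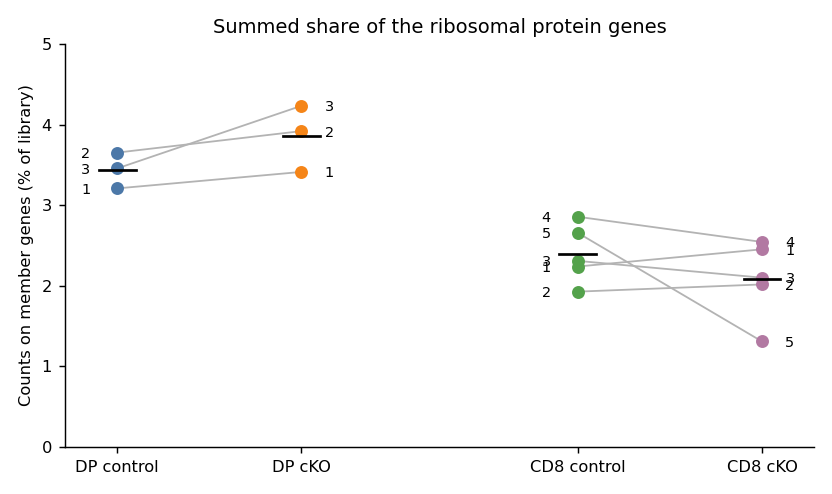
Share of all counts that fell on the 89 ribosomal protein genes, in percent of each library, by group. Points are libraries with their replicate number, grey lines join libraries of the same number, and black bars are group means (3.44, 3.85, 2.40 and 2.08%); CD8 cKO replicate 5 is lowest at 1.31%.

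Most of the family was abundant. Of the 89 genes, 80 had counts in every library and 78 had a mean of at least 100 counts. In DP controls the median TPM was 1658 for the 31 small subunit genes and 1333 for the 46 large subunit genes, while the 11 paralogs and retrogenes had a median of 7.14 TPM. In CD8 controls the medians were 1153, 1011 and 1.04 TPM. In DP controls at least 100 TPM were measured for 30 of 31 small subunit genes, 43 of 46 large subunit genes and 2 of 11 paralogs. Within each class the levels were uneven, up to 3020, 3279 and, for Rpl36al, 384 TPM.

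The highest mean level over all libraries was that of Rps26, whose protein sits near the exit of the mRNA channel, at 4065 TPM. Next came Rplp0, the scaffold of the stalk that recruits translation factors, at 3065 TPM, and Rpl4, which lines the exit tunnel of the new peptide, at 2368 TPM. Rpl28, a large subunit protein, was at 2358 TPM and Rplp1, a partner of Rplp0 in the stalk, at 2337 TPM. The order depended on the cell type: Rps26 had 2746 ± 90.6 TPM in DP controls (SD, n = 3) and 5322 ± 1419 TPM in CD8 controls (SD, n = 5), while Rpl28 had 3202 ± 151 TPM and 1832 ± 205 TPM in the same groups.

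A small number of members had few counts. Rpl26, which encodes a core large subunit protein, Rps27rt and Rpl10l, a paralog known from testis, had 0 counts in all 16 libraries. The annotation of Rpl26 shares 95.8% of its exon bases, on the same strand, with the gene Gm15772, which also had 0 counts. Rpl30 had 38 counts in all and shares 76.0% with Gm12191, Rpl34 had 337 and shares 59.9% with Rpl34-ps1, and Rps27 had 623 and shares 60% with Rps27rt, while Rps27rt shares 100% of its exon bases with Rps27. The part of these overlaps in the low counts of the 4 core genes and in the 0 of Rps27rt was not tested. The remaining low members were Rpl39l, a testis-type paralog, with 42 counts, Rpl3l, a paralog known from muscle, with 100, Rpl32l with 37, Rps4l with 353 and Rpl37rt with 1592.

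Ribosomal protein genes share sequence with many copies elsewhere in the genome. In the annotated transcripts a median of 48.6% of the 50-base windows of a member also occurred in a transcript of another gene, from 0 to 93.3%. The 41 members with at least 50% shared windows and the 48 with less had like medians in every comparison: 0.15 and 0.20 (log2) for DP cKO against control, -0.22 and -0.24 for CD8 cKO against control, and -0.69 and -0.65 for CD8 controls against DP controls.

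The first comparison asks what loss of Tox4 did to the family in DP cells. Of 83 members tested, 81 had a fitted difference above 0, but none passed the test. The median log2 difference was 0.16, against -0.003 for all 11665 other genes tested and 0.07 for the 804 other genes shorter than 1000 bases. By edgeR quasi-likelihood 0 members were called higher and 0 lower at an adjusted p under 0.05, 0 had an unadjusted p under 0.05, and DESeq2 gave 0 by both criteria. Over all 11748 genes tested, 0.0851% were called higher and 0.0596% lower, and 1079 had an unadjusted p under 0.05.

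Within DP cells the 3 same-numbered pairs all leaned the same way. The median log2 difference of members, cKO minus control on the scale log2(CPM + 1), was 0.12 in pair 1, 0.09 in pair 2 and 0.30 in pair 3. Members were higher in the cKO sample in 74, 71 and 81 of 83 cases, and 64 of them were higher in all 3 pairs. The same counts over all genes were not made, and members share libraries and are not independent. Whether the numbers mark matched samples was not settled. All other genes tested had medians of 0.02, -0.01 and 0.008 in pairs 1 to 3. The other genes under 1000 bases had medians of 0.04, -0.02 and 0.14 in the same pairs. Pair 3 therefore held the largest differences for members, and without DP cKO replicate 3 the fitted median was 0.09. It was 0.10 without DP control replicate 1 and 0.25 without DP cKO replicate 1.

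Both subunits behaved alike in DP cells. The 31 small subunit genes had a median log2 difference of 0.17 with 30 above 0, and the 44 large subunit genes tested had a median of 0.15 with 44 above 0. The 7 paralogs tested had a median of 0.23 with 6 above 0. In 7 members every cKO library lay above every control, among them Rpl36al, Rpl4, Rps19, Rps26 and Rpl28. Groups lay apart in that direction in 7.99% of all genes tested, and in the opposite direction in 6.98%, so the member count is near the background.

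The single member whose DP cKO libraries all lay below the controls was Rpl22l1, the paralog of Rpl22. It was at 19.6, 23.2 and 21.1 CPM in controls and at 13.6, 18.6 and 18.0 CPM in cKO samples, lower in all 3 pairs. The log2 difference was -0.35 (standard error 0.17, adjusted p = 0.598 by edgeR quasi-likelihood, Benjamini-Hochberg), so it did not pass the test. Rpl22 was at 141, 172 and 148 CPM in controls and at 161, 179 and 191 CPM in cKO samples, with overlapping groups and a log2 difference of 0.20 (standard error 0.12). The paralogs thus differed in sign, with neither called.

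The largest fitted differences in DP cells belonged mostly to sparse genes. Rpl34 had a log2 difference of 0.69 (standard error 0.43), Rps4l 0.46 (standard error 0.34) and Rpl3l 0.35 (standard error 0.81), each measured at under 5 CPM in all DP libraries. Among abundant members the largest were Rplp2, the second partner of Rplp0 in the stalk, at 0.36 (standard error 0.20), and Rpl13 at 0.33 (standard error 0.17). At the low end stood Rps27 at -0.43 (standard error 0.36), Rpl22l1, Rpl7l1 at 0.02, Rpl10, which acts in the joining of the subunits, at 0.02, and Rplp1 at 0.02. The stalk proteins were not uniform: Rplp2 was at 212, 283 and 306 CPM in controls and 276, 300 and 457 CPM in cKO samples, and Rplp1 at 469, 543 and 540 CPM and 450, 506 and 619 CPM.

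**Figure D2:**
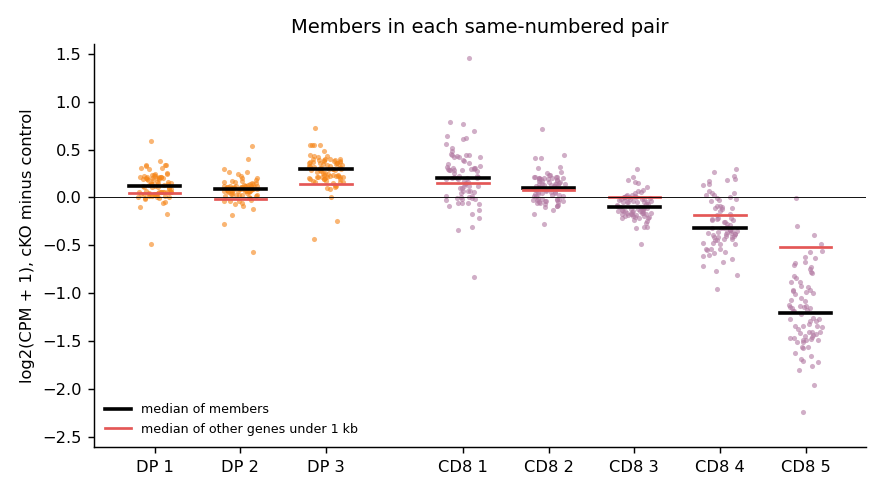
Difference on the scale log2(CPM + 1), cKO minus control, of each member in each same-numbered pair (points), with the median of members (black) and of other genes under 1000 bases (red). Member medians lie above 0 in the 3 DP pairs and run from 0.21 in CD8 pair 1 to -1.20 in CD8 pair 5.

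Genes that act on ribosomal protein synthesis were mostly not called in DP cells either, with Myc as the exception. The part of Myc and of these genes in the member values was not tested. Myc was at 36.3, 40.8 and 35.7 CPM in controls and at 66.3, 77.7 and 77.4 CPM in cKO samples, so every cKO library lay above every control. Its log2 difference was 0.97 (adjusted p = 0.0315 by edgeR quasi-likelihood, Benjamini-Hochberg), the only call among 21 genes of the mTORC1 and Myc list. The call held in 15 of 20 settings, and the adjusted p ranged from 1.3e-07 to 0.208; it was lost without DP control replicate 1, 2 or 3 (adjusted p = 0.0780, 0.208 and 0.152) and without DP cKO replicate 2 or 3 (adjusted p = 0.202 and 0.149). By edgeR 0 genes were called in the ribosome biogenesis list (70 tested, median 0.08, 4 at an unadjusted p under 0.05), the mitochondrial ribosomal proteins (78 tested, median 0.07, 3 unadjusted), the translation factors with pyrimidine tracts (24 tested, median 0.15, 0 unadjusted) and the 5S particle and p53 list (9 tested, median 0.04, 1 unadjusted). DESeq2 called Myc, and 1 more gene in each of 2 of these lists: Nat10 in ribosome biogenesis and Cdkn1a in the p53 list.

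Values of 4 marker lists in the DP groups follow, with 0 genes called by edgeR in each of them, and their part in the member values was not tested. All 21 proliferation genes, led by Mki67, had differences above 0, and 0 were called by edgeR (3 at an unadjusted p under 0.05) or by DESeq2. Their summed level was 3459, 4114 and 2745 CPM in controls and 5307, 3608 and 4208 CPM in cKO samples. Of 12 CD8 single-positive markers, led by Cd8a, 11 had differences below 0, and edgeR called 0 (5 at an unadjusted p under 0.05) and DESeq2 1, Ccr7, with summed levels of 5423, 4958 and 5026 CPM in controls and 4533, 3946 and 4584 CPM in cKO samples. Of 9 myeloid markers, led by Cd74, 6 had differences below 0 (median -0.80), and edgeR called 0 (5 at an unadjusted p under 0.05) and DESeq2 3, Cd74, H2-Aa and Lyz2, all lower, with summed levels of 80.6, 152 and 72.3 CPM in controls and 51.9, 58.4 and 72.6 CPM in cKO samples. The 4 B cell markers tested of 6, led by Cd79b, all had differences below 0, with 0 called by edgeR (2 at an unadjusted p under 0.05) or by DESeq2 and summed levels of 23.0, 32.2 and 19.2 CPM in controls and 17.2, 19.0 and 20.9 CPM in cKO samples. A lower number of cells of a type and less RNA per cell cannot be told apart in these bulk samples.

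In CD8 cells the comparison of cKO with control gave no call either, and the members leaned the other way. Of 80 members tested, 75 had a fitted difference below 0. The median log2 difference was -0.22, against -0.005 for all 11147 other genes tested and -0.12 for the 631 other genes under 1000 bases. With no expression filter, the other genes under 1000 bases had a median of -0.23. In that fit members had -0.22 and all other genes -0.06. By edgeR quasi-likelihood 0 members were called, 2 had an unadjusted p under 0.05, and DESeq2 likewise called 0 with 2 at an unadjusted p under 0.05. Over all 11227 genes tested, 0.0891% were called higher and 0.0178% lower, and 629 had an unadjusted p under 0.05.

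This lean rested largely on 1 library. Pair medians on the scale log2(CPM + 1) were 0.21, 0.10, -0.10, -0.32 and -1.20 for CD8 pairs 1 to 5, and members were higher in the cKO sample in 64, 58, 19, 14 and 0 of 80 cases. Without CD8 cKO replicate 5 the fitted median was -0.06, with 18 of 80 members above 0, and without CD8 control replicate 4 it was -0.14. In pair 5 the other genes under 1000 bases also had a negative median, -0.51. The pairs therefore did not share a direction, and 0 members were higher in all 5 pairs. Here too the same counts over all genes were not made.

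The members with groups that do not overlap numbered 0 in either direction in CD8 cells, where 0.846% of all genes lay apart higher and 0.721% lower. The small subunit genes had a median log2 difference of -0.22 (31 tested) and the large subunit genes -0.24 (43 tested), while 5 paralogs had a median of 0.08 with 3 above 0. These medians include CD8 cKO replicate 5.

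Of 80 members tested 2 were lower in the cKO sample in all 5 CD8 pairs, and the same count over all genes was not made. Rps24, a small subunit gene, was 1 of them. It was at 535, 409, 430, 557 and 486 CPM in controls and at 525, 400, 405, 507 and 204 CPM in cKO samples, a log2 difference of -0.25 (standard error 0.20). The groups overlap, and replicate 5 gives the lowest cKO value: the pair differences were -1.26 in pair 5 and -0.14 to -0.01 in the other pairs.

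The lowest fitted difference in CD8 cells was that of Rps19bp1, at -0.50 (standard error 0.23, unadjusted p = 0.0440 and adjusted p = 0.877 by edgeR quasi-likelihood). It was at 7.42, 6.02, 3.90, 5.49 and 6.92 CPM in controls and at 3.66, 4.80, 4.47, 3.08 and 5.05 CPM in cKO samples, and here replicate 5 was the highest cKO sample. Also among the lowest were Rpl41, which encodes the smallest ribosomal protein, at -0.45 (standard error 0.27), Rps26 at -0.41 (standard error 0.26) and Rpl38, known for its part in skeletal patterning, at -0.39 (standard error 0.26). Without CD8 cKO replicate 5 these 3 were at -0.24, -0.21 and -0.19, and in that library they were at 79.6, 246 and 22.7 CPM, below every other CD8 library. The highest were the paralogs Rps27l at 0.30 (standard error 0.30), Rpl7l1 at 0.23 (standard error 0.12) and Rpl22l1 at 0.08 (standard error 0.18), with Rps27 at 0.05 (standard error 0.48) and Rpl7 at 8.91e-05 after them. Rps27l is a known p53 target, and its CPM was 2.47, 7.81, 4.11, 4.16 and 5.49 in controls and 8.44, 7.50, 4.81, 5.22 and 3.64 in cKO samples, with overlapping groups.

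Among the other lists in CD8 cells, the mitochondrial ribosomal proteins had a median of -0.12 (78 tested, 2 at an unadjusted p under 0.05), ribosome biogenesis -0.04 (70 tested, 0 unadjusted), translation factors with pyrimidine tracts -0.11 (24 tested, 2 unadjusted), the mTORC1 and Myc list -0.03 (21 tested, 1 unadjusted) and the 5S particle and p53 list 0.27 (9 tested, 4 unadjusted). By edgeR 0 genes were called in each, and by DESeq2 only Cdkn1a of the p53 list. In the natural killer and gamma-delta marker list all 5 tested genes had differences above 0 and Cd163l1, at 1.81 (adjusted p = 0.00984 by edgeR quasi-likelihood, Benjamini-Hochberg), was called. The summed level of that list, led by Klrd1, was 33.2, 32.0, 37.4, 33.3 and 33.5 CPM in CD8 controls and 68.8, 40.8, 58.1, 44.8 and 59.6 CPM in CD8 cKO samples, and its part in the member values was not tested.

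**Figure D3:**
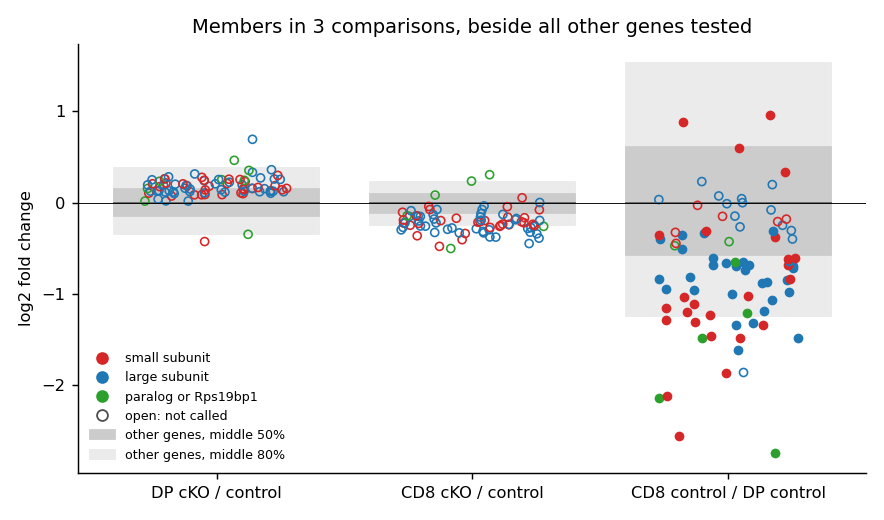
Fitted log2 fold change of every tested member in the 3 comparisons (points: small subunit red, large subunit blue, paralogs and Rps19bp1 green; filled when called at an adjusted p under 0.05), over the middle 50% and 80% of all other genes tested (grey bands). The medians of members are 0.16, -0.22 and -0.68, and only the comparison of cell types holds filled points.

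Whether the effect of Tox4 loss differed between the cell types was tested as an interaction in a fit of all 4 groups. The median log2 difference of effects, CD8 minus DP, was -0.40 over 83 members, against -0.01 over 12048 other genes tested, and 5 members lay above 0. By edgeR quasi-likelihood 0 members were called, 1 had an unadjusted p under 0.05, and DESeq2 gave the same counts. That member was Rps19bp1, at -0.76 (unadjusted p = 0.0344, adjusted p = 0.897 by edgeR quasi-likelihood). Over all 12131 genes tested 0.107% were called higher and 0% lower, and 639 had an unadjusted p under 0.05. The opposite leans in DP and CD8 cells thus did not pass the test of their difference for any member, and without CD8 cKO replicate 5 the median was -0.25.

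The third comparison sets CD8 controls against DP controls, and here many members differed. Of 82 members tested, 4 were higher and 56 lower in CD8 cells at an adjusted p under 0.05 by edgeR quasi-likelihood, where 29.9% of all 11758 genes tested were higher and 30.4% lower. At an unadjusted p under 0.05 stood 62 members and 7536 of all genes tested. When the study's further thresholds were added, a mean TPM of 1 or more and a difference of 1.5-fold or more, 3 were higher and 48 lower, against 22% and 22.3% of all genes. Groups lay apart in 3 members higher and 54 lower, against 27.2% and 29.5% of all genes. The median log2 difference of members was -0.68, with -0.004 for all other genes. Each table holds 1 cell type, so cell type and table cannot be told apart here. The DP libraries all had few Xist counts (13 at most), while CD8 libraries numbered 1, 2 and 5 had many. With the 2 CD8 controls of few Xist counts alone, an alternative added after seeing the data, 6 members were higher and 53 lower.

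Short genes that passed the expression filter were in general lower in the CD8 libraries, members or not. The 724 other genes under 1000 bases had a median log2 difference of -0.79, with 97 called higher and 394 lower. With no filter, the median of other genes under 1000 bases was instead 0.50. It was 0.33 for all other genes and -0.70 for members in that fit. The filtered genes were put in 5 classes of equal size by exonic length. The median of other genes ran from -0.49 in the shortest class (up to 1718 bases) through -0.12, 0.01 and 0.10 to 0.31 in the longest. The shortest class held 72 of the 82 members tested, whose median there was -0.69. Across 78 abundant members, which share libraries and are not independent, length and log2 difference had a rank correlation of 0.453 in this comparison, 0.231 in CD8 cKO against control and -0.002 in DP cKO against control.

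A fit with an offset for each library that follows the length trend of the other genes, added after seeing the data, changed the result. It called 28 members higher and 21 lower, with a median of 0.12. All 4 members called higher remained so, 20 of the 56 called lower remained lower, 26 were no longer called, and 10 passed from lower to higher. The lower level of the family as a whole therefore holds on the scale of counts and not on this length-adjusted scale, and whether the length trend is of the cells or of the libraries was not tested. The members that kept their side on both scales are described first.

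**Figure D4:**
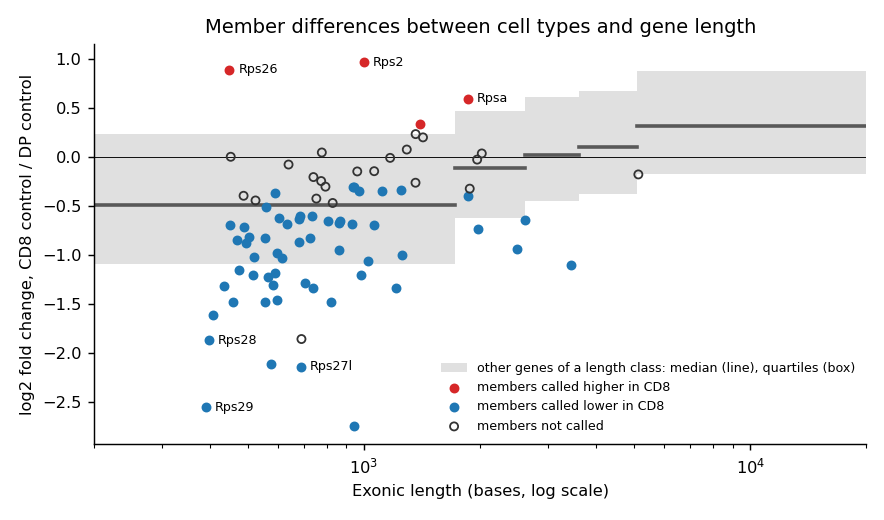
Log2 fold change of each tested member between CD8 and DP controls against its exonic length (log axis), with the median and quartiles of other genes in 5 length classes (grey). Other genes go from -0.49 in the shortest class to 0.31 in the longest, most members lie in the shortest class, and Rps2, Rps26 and Rpsa lie above the upper quartile of their classes.

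Of the small subunit genes 4 were higher in CD8 cells, and these were the only members called higher. Rps2, whose protein lines the entry of the mRNA channel, was at 308, 453 and 393 CPM in DP controls and at 660, 639, 755, 841 and 812 CPM in CD8 controls. Its log2 difference was 0.96 (standard error 0.14, adjusted p = 0.000122 by edgeR quasi-likelihood, Benjamini-Hochberg), and every CD8 control lay above every DP control. With the length offset it was 1.59.

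Rps26 was at 379, 434 and 431 CPM in DP controls and at 1089, 581, 607, 770 and 724 CPM in CD8 controls. The log2 difference was 0.88 (standard error 0.20, adjusted p = 0.00214), again with groups apart, and with the length offset 2.01. Rpsa, which encodes a protein of small subunit assembly also known as the laminin receptor precursor, was at 890, 1093 and 959 CPM and at 1403, 1104, 1510, 1691 and 1596 CPM. Its log2 difference was 0.59 (standard error 0.14, adjusted p = 0.00378), and its groups lay apart by a small margin, with CD8 control replicate 2 close to DP control replicate 2. Its call was lost with the replicate block (0.47, adjusted p = 0.0540 by edgeR quasi-likelihood).

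Rps6, the substrate of the S6 kinases, was at 504, 587 and 564 CPM in DP controls and at 652, 549, 663, 831 and 746 CPM in CD8 controls, so its groups overlap. Its log2 difference of 0.33 (standard error 0.13) stood close to the threshold (adjusted p = 0.0450 by edgeR quasi-likelihood), and the call was lost under several other settings. Leaving out any 1 of DP control replicates 1, 2 and 3 ended it (adjusted p = 0.141, 0.0643 and 0.0806), as did leaving out CD8 control replicates 3, 4 or 5 (adjusted p = 0.0574, 0.0845 and 0.0852).

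Of the members lower in CD8 cells, 3 short genes stood out by size. Rps29, a zinc-binding small subunit protein, was at 254, 272 and 271 CPM in DP controls and at 25.4, 38.2, 46.7, 59.3 and 53.6 CPM in CD8 controls, a log2 difference of -2.56 (standard error 0.20, adjusted p = 6.77e-07). Rps28 was at 140, 154 and 148 CPM and at 59.5, 31.0, 27.8, 44.6 and 35.9 CPM, a log2 difference of -1.87 (standard error 0.21, adjusted p = 1.27e-05). Rps27l, the p53-linked paralog of Rps27, was at 25.6, 19.7 and 19.7 CPM and at 2.47, 7.81, 4.11, 4.16 and 5.49 CPM, a log2 difference of -2.14 (standard error 0.27, adjusted p = 3.28e-05). All 3 kept their direction and call with the length offset, at -1.47, -0.79 and -1.23. Rps27 (-2.12) and Rps4l (-2.75) were also called but had at most 122 and 92 counts in any library.

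The genes with known roles in thymocytes or in p53 control differed among themselves. Rpl22 was at 141, 172 and 148 CPM in DP controls and at 91.5, 65.6, 68.7, 85.9 and 82.4 CPM in CD8 controls, with groups apart. Its log2 difference was -0.94 (standard error 0.13, adjusted p = 6.27e-05), and -0.90 with the length offset, since its transcript of 2497 bases is long for the family. Rpl22l1 was lower as well, at -1.49 (standard error 0.17, adjusted p = 1.93e-05), or -0.44 with the length offset.

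Rpl11 and Rpl5 together carry the 5S rRNA and bind Mdm2. Rpl11 was at 407, 470 and 449 CPM in DP controls and at 159, 137, 153, 215 and 196 CPM in CD8 controls, a log2 difference of -1.34 (standard error 0.14, adjusted p = 6.18e-06), and -0.87 with the length offset. Rpl5 was at 537, 589 and 548 CPM and at 487, 452, 578, 682 and 623 CPM, a log2 difference of 0.03 (standard error 0.13). So 1 partner was lower on both scales while the other was not called on either.

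In the stalk, Rplp0 was at 1327, 1580 and 1568 CPM in DP controls and at 907, 1086, 1271, 1490 and 1382 CPM in CD8 controls, a log2 difference of -0.27 (standard error 0.15) that was not called. Rplp1 was at -0.85 and Rplp2 at -1.49 (adjusted p = 0.00152 and 1.73e-05 by edgeR quasi-likelihood). With the length offset Rplp2 stayed lower and Rplp1 was at 0.28, not called. Rplp0 was called lower with the replicate block (-0.44, adjusted p = 0.0278) and with total counts (-0.37, adjusted p = 0.0467), and Rplp1 and Rplp2 were called lower there too.

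By class, 4 small subunit genes were higher and 21 lower of 31 tested, 0 large subunit genes were higher and 30 lower of 44 tested (31 at an unadjusted p under 0.05), and 0 paralogs were higher and 5 lower of 6 tested. The medians were -0.69, -0.67 and -1.35. Among the large subunit genes not called were Rpl3, which reaches the peptidyl transferase centre, at 0.23 (standard error 0.18), Rpl4 at 0.20 (standard error 0.12), Rpl10a at -0.15 and Rpl10 at -0.31. Rpl39 of the exit tunnel was lower at -1.32, Rpl36a at -0.71 and its paralog Rpl36al at -1.21, Rpl13a at -1.07, Rpl28 at -0.88, Rpl7 at -0.69 and its paralog Rpl7l1 at -0.65. With the length offset Rpl3 (0.62), Rpl4 (0.56), Rpl10a (0.43), Rpl10 (0.49), Rpl28 (0.23) and Rpl36a (0.40) were called higher, Rpl13a (-0.46) and Rpl7l1 (-0.62) stayed lower, and Rpl39 (-0.18), Rpl36al (-0.12) and Rpl7 (-0.01) were not called. Rpl10 was called lower with the replicate block (-0.52, adjusted p = 0.0154 by edgeR quasi-likelihood) and with total counts (-0.41, adjusted p = 0.0392). With the CD8 controls of few Xist counts alone, Rpl3 (0.47, adjusted p = 0.0150) and Rpl4 (0.31, adjusted p = 0.0439) were called higher. Of the small subunit genes Rps27a, made as a fusion with ubiquitin, was at -1.48, Rps19, the gene most often mutated in Diamond-Blackfan anaemia, at -1.20 and Rps25 at -0.60, while the X-linked Rps4x at -0.35 lay just inside the threshold (adjusted p = 0.0484). Leaving out DP control replicate 1, 2 or 3 (adjusted p = 0.0593, 0.188 and 0.0768 by edgeR quasi-likelihood) or CD8 control replicate 1, 2 or 3 (adjusted p = 0.0706, 0.103 and 0.0685) ended the call of Rps4x. By the same test it was also lost with RLE size factors (adjusted p = 0.0549), with TMM factors computed without the members (adjusted p = 0.0505), with counts of -ps rows added (adjusted p = 0.0529), with all 4 groups in 1 fit (adjusted p = 0.0735) and with the CD8 controls of few Xist counts alone (adjusted p = 0.208). With the length offset Rps27a (-0.70) and Rps19 (-0.57) stayed lower, Rps25 (0.30) was called higher and Rps4x (0.30) was not called.

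**Figure D5:**
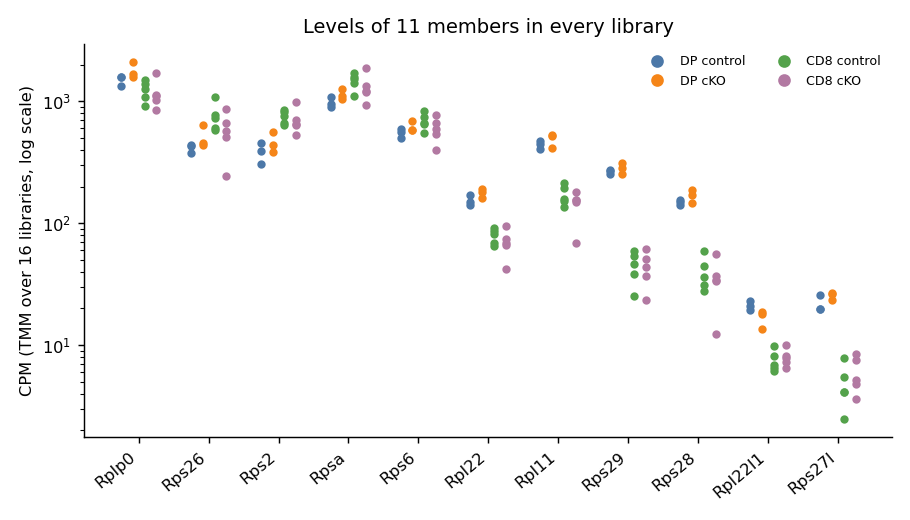
Level of 11 members in each of the 16 libraries, in CPM scaled by TMM, on a log axis, coloured by group. Rps26, Rps2 and Rpsa are higher in CD8 controls than in DP controls, Rpl22, Rpl11, Rps29, Rps28, Rpl22l1 and Rps27l are lower, and control and cKO samples overlap in most genes.

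Other genes of the translation system and its control differed in both directions between the cell types, and their part in the member values was not tested. Of 78 mitochondrial ribosomal protein genes, whose transcripts are also short, 3 were higher and 53 lower in CD8 controls, with a median of -0.81, from Mrps26 (-2.23) and Mrps14 (-2.12) to Mrps2 (0.74) and Mrps18b (0.89). Of 70 ribosome biogenesis genes 28 were higher and 14 lower, with a median of 0.19, from Wdr12 (-2.28) and Emg1 (-1.80) to Rrp1b (1.65) and Mdn1 (2.13).

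Of 24 translation factors and other messages with pyrimidine tracts, 2 were higher and 9 lower, with Fau (-1.15) and Tpt1 (-0.71) at one end and Eef1a1 (0.57) and Pabpc1 (1.38) at the other. Fau was also the only call among the 3 tested genes that encode ribosomal proteins under other names. Of 21 genes of mTORC1 and Myc control 8 were higher and 4 lower, including Mycn (-2.10), Deptor (-1.77), Larp1, whose protein binds pyrimidine tract messages, (1.33) and Myc (2.84). Of 9 genes of the 5S particle and p53 list 2 were higher, Trp53 (0.89) and Zmat3 (0.86), and 2 lower, Phlda3 (-1.64) and Mdm4 (-0.27).

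Marker lists moved with this comparison too, and their part in the member values was not tested. Of 21 proliferation genes 0 were higher and 17 lower in CD8 controls (18 at an unadjusted p under 0.05), with summed levels of 2745 to 4114 CPM in DP controls and 1217 to 2211 CPM in CD8 controls. The 6 erythroid markers summed to 0.397 CPM at most, and the 4 globin genes among them were at 0 in every library.

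The promoters of the members were searched for letters known from this gene family. RefSeq sequences from 250 bases before to 50 after the annotated start (GRCm38.p6) matched 67 of 89 members, or 75.3%. This is under the 80% set for a statement on the whole family, so the shares describe the matched genes. The letters CCGGAAG, of the type bound by ETS factors, occurred on either strand in 25 of the 67 (37.3%) in 11.8% of 18261 promoters of all genes and in 19.4% of the 9657 promoters of genes tested. The letters AAGATGG, of the type bound by YY1, occurred in 10 (14.9%), in 6.45% of all and in 7.43% of those tested. A tract of a C within 5 bases of the start followed by at least 4 pyrimidines occurred in 29 (43.3%), in 19.0% of all and in 20.1% of those tested. The first pair of motifs share the letters AAG, but no match of CCGGAAG overlapped one of AAGATGG or a tract in these promoters. Of 69 promoters of mitochondrial ribosomal protein genes, 34.8% held CCGGAAG, 18.8% AAGATGG, a higher share than among the members, and 23.2% a tract. A match describes letters only and says nothing of binding.

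The start regions of the 4 members called higher in CD8 controls and of the 4 lowest matched core members with a mean of at least 100 counts are shown. They stand for both ends of the comparison of cell types among matched genes only, and Rps29 had no matched promoter. Among them Rpl39 was not called with the length offset (-0.18), and the call of Rps6 was lost under several settings. Each line gives 30 bases, from 15 before the annotated start, 5′ to 3′ on the strand of the gene, with the pyrimidine tract in capitals where one was found. The regions are chr17:24720048-24720077 (+) for Rps2, chr10:128626492-128626521 (-) for Rps26, chr9:120127751-120127780 (+) for Rpsa, chr4:86857353-86857382 (-) for Rps6, chr17:33824548-33824577 (-) for Rps28, chr7:141447636-141447665 (+) for Rplp2, chr4:136053379-136053408 (-) for Rpl11 and chrX:37085208-37085237 (-) for Rpl39.
Rps2: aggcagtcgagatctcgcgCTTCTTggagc
Rps26: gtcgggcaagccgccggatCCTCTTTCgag
Rpsa: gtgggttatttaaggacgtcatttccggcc
Rps6: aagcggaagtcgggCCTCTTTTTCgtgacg
Rps28: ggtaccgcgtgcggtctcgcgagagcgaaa
Rplp2: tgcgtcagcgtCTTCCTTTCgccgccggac
Rpl11: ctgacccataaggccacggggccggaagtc
Rpl39: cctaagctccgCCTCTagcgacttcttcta
A tract was found in Rps2, Rps26, Rps6, Rplp2 and Rpl39 and not in Rpsa, Rps28 and Rpl11, so genes called higher and genes called lower occur on both sides. Among the matched members called higher 3 of 4 had a tract, and among those called lower 18 of 41. The letters CCGGAAG occurred in 4 of 4 and in 15 of 41 of the same sets.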

How the data were processed

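The authors filtered reads with fastp 0.13.1, aligned them with HISAT2 2.1.0 and counted fragments per gene with featureCounts 1.6.1, and the deposited values are raw counts with replicates kept apart. The build is mm10 per the labels, and positions and exonic lengths came from the DP table. CD8 columns were matched to groups by genotype name and number. Each comparison was fitted on all genes of its groups with edgeR 4.0.16 (R 4.3.3, limma 3.58.1): TMM, filterByExpr, quasi-likelihood F test, Benjamini-Hochberg over all genes tested, calls at an adjusted p under 0.05. All 4 groups entered the interaction. DESeq2 1.42.0, other normalizations and filters, a replicate block, length offsets and left-out libraries were run as alternatives. The tests were also run on simulated independent libraries. Those held no length trend, replicate effect or outlying library, so that run cannot speak to these features. TPM used the exonic length; pair differences used a pseudocount of 1 CPM.

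Genes named are the 5 highest and 5 lowest fitted differences per comparison, the 5 highest in mean TPM and a list of members with known roles; for other lists, the 2 highest and 2 lowest called genes. Rps24, Nat10, Cdkn1a and the genes DESeq2 alone called were named after their values were seen. Values of some single members are not reported here, while counts and medians include all members. The members and lists were chosen with earlier results of these data known. Results of marker lists not given elsewhere, as genes called higher and lower in CD8 controls of those tested: DP 0 and 11 of 11, CD8 single-positive 9 and 2 of 12, CD4 single-positive 3 and 2 of 6, B cell 0 and 1 of 6, myeloid 2 and 5 of 9, natural killer and gamma-delta 4 and 0 of 5, thymic epithelium 0 and 1 of 1. For cKO against control edgeR called 0 genes of these lists besides Cd163l1; the unadjusted counts in DP and CD8 were 1 and 0 for DP markers, 5 and 1 for CD8, 2 and 1 for CD4, 2 and 0 for B cell, 5 and 2 for myeloid, 0 and 3 for natural killer and gamma-delta, and 0 and 0 for epithelium. DESeq2 called Zbtb7b, Ccr7, Cd74, H2-Aa and Lyz2 lower in DP cells and Cd163l1 and Sox13 higher in CD8 cells. No erythroid gene passed the filter.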

Additional observations from a re-analysis of the deposited data

Results flagged for a closer look

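In the 5-sample CD8 groups, 38 measures were checked in each of 2 groups for a sample far from the others by Dixon's test. Of these 76 checks 4 gave a flag, which is near the share of about 1 in 20 groups that chance flags. The measures share libraries and are not independent. In CD8 cKO replicate 5 the median level of the small and large subunit genes was 6.72 (log2 CPM), against 7.74 to 8.06 in the other CD8 cKO samples. In the same library Rpl11 was at 69.5 CPM, against 150 to 181 CPM. In CD8 control replicate 1, 17741 genes had at least 1 count, where the remaining CD8 controls had 13708 to 14194, and its Rpl7l1 level was 29.0 CPM, against 44.2 to 49.7 CPM.

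The 80 members tested in CD8 cells were searched for opposite signs between every DP pair and every CD8 pair, and only Rps24 was found. The share over all genes was not counted. Rps24 was higher in the cKO sample in each DP pair, by 0.09 to 0.31 (log2). It was lower in each CD8 pair, with differences of -1.26 in pair 5 and -0.14 to -0.01 in the others. The interaction was -0.42 (adjusted p = 0.950 by edgeR quasi-likelihood, Benjamini-Hochberg), so the difference between cell types did not pass its test. The causes of these values were not tested.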

How the results depend on the processing

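In DP, CD8 and interaction fits 0 members were called under every alternative run, each left-out library included (0 to 0). Medians over left-out libraries ran from 0.09 to 0.25 in DP cells, from -0.33 to -0.06 in CD8 cells and from -0.74 to -0.60 between controls; there, 52 to 62 members were called, 3 to 4 higher and 49 to 59 lower. With both CD8 samples numbered 1 left out, the CD8 median was -0.32. With length offsets the medians were 0.10 in DP cells, -0.12 in CD8 cells and -0.19 in the interaction. The length offsets and the fit without both CD8 samples numbered 1 were chosen after seeing the data.

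Between controls, length-trended offsets, chosen after seeing the data, gave 28 members higher, 21 lower and a median of 0.12; of the named members called lower before, Rplp1 (0.28), Rpl41 (0.43), Rpl28 (0.23), Rpl36a (0.40), Rps4x (0.30) and Rps25 (0.30) turned positive. The cause was not tested. Total-count scaling moved the median of other genes to -0.11 and that of members to -0.79. The call of Rps6 was lost with upper-quartile scaling, total counts, no filter, 4 groups in 1 fit and the block (adjusted p by edgeR quasi-likelihood from 0.0550 to 0.303).

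Same-numbered samples correlated at 0.0809 to 0.708 (DP) and at 0.0994 to 0.390 (CD8), with means of 0.380 and 0.309. Control and cKO samples of unlike number had mean correlations of -0.181 (DP) and -0.0803 (CD8). All same-numbered correlations were above 0, but not every sample correlated best with its own number. The main fits did not use the numbers as pairing, and whether they mark matched samples was not settled. With the replicate number as a block, 0 members were called in DP cells (28 at an unadjusted p under 0.05; 152 genes, 84 higher and 68 lower, were called in all), 0 in CD8 cells (14 unadjusted; 33 and 11 genes) and 0 in the interaction (12 unadjusted; 30 and 3 genes). Between controls 2 members were called higher and 61 lower, with Rpsa at an adjusted p of 0.0540 by edgeR quasi-likelihood. In that comparison the block joins DP and CD8 samples by their number alone. Numbers 1 and 2 had few Xist counts in DP controls and many in CD8 controls. DESeq2 without the block called 101 genes higher and 75 lower in DP cells and 45 and 22 in CD8 cells. Depth limits the members with few counts.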
